A study of Homo sapiens with 9 samples.

Results

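The genes that repair DNA double-strand breaks were followed in HEK293 cells after knock-down of SmcHD1, a non-canonical structural maintenance of chromosomes protein. The set held 40 genes, chosen by name from the end joining, homologous recombination and damage signalling pathways and found on the array through the RefSeq accessions of their probes, out of 19483 genes that could be named in this way. They were covered by 51 probes. All 40 genes passed the filter on dim probes, against 16082 genes over the whole array, so that no member was lost. HEK293 is a line of human embryonic kidney cells transformed with the adenovirus E1 region. Cells were infected with a retroviral vector (pQCXIP-GFP) that expressed shRNA 3 against SmcHD1 (KD3), shRNA 4 against SmcHD1 (KD4) or the control shRNA NC5 (CTL), and were grown as stable, puromycin selected populations rather than single clones. All 3 groups therefore shared the vector and the selection, and none received a further treatment or a DNA damaging agent. The samples of each group, 1 array each, numbered 3, and the methods name them biological triplicates without saying whether the infections were separate, so that the p-values measure the spread between these samples.

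A double-strand break can be rejoined directly by non-homologous end joining, in which the Ku heterodimer binds the ends and LIG4 with XRCC4 seals them, or copied from the sister chromatid by homologous recombination, in which the ends are first resected to single strands. The choice between the pathways is governed by proteins that protect the ends, TP53BP1 and RIF1, or that promote resection, such as BRCA1 and RBBP8. A further route, alternative end joining, uses PARP1, POLQ, LIG3 and XRCC1. Breaks are sensed by the MRE11-RAD50-NBN complex and by the kinases ATM and ATR, and the signal is spread over chromatin by MDC1, RNF8 and RNF168. SmcHD1 belongs to the same protein family as cohesin and the SMC5/6 complex, which take part in repair, and has itself been connected with end joining.

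The hairpins are shown because they are the only designed difference between the groups. They are given 5′ to 3′ as the labels hold them, in DNA letters, and the capitals mark the arm after the loop. Each hairpin was 68 bases long, with arms of 25 bases around a loop of 9 bases, and 23 of the 25 positions were paired.
KD3: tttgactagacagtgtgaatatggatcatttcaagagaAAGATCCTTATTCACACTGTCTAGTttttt
KD4: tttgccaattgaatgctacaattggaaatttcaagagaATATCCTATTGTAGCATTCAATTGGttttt
CTL: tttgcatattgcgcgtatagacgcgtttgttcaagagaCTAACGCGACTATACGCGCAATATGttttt
The 3 hairpins shared the loop and the flanking letters, and KD3 and KD4 carried different arm sequences.

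The targeted transcript was lower in both knock-downs. On the brightest of its 3 probes, SMCHD1 had a normalized log2 signal of 11.26 ± 0.0942 in CTL, 10.29 ± 0.122 in KD3 and 9.73 ± 0.0895 in KD4 (mean ± SD, n = 3 each), and no groups overlapped. SMCHD1 fell by 0.97 on the log2 scale in KD3 (limma adjusted p = 0.000214) and by 1.53 in KD4 (limma adjusted p = 1.81e-05), which left 51.0% and 34.6% of the CTL signal. Array medians of the processed signal ranged from 119.6 to 181.4, between 75.1% and 79.8% of probes were well above background, no spot was saturated, and replicate arrays correlated at 0.9946 or higher. The small number of arrays, 3 per group, limits the precision. All 7 markers of HEK293 cells, neurofilaments, vimentin and keratins, were well above background on the 9 arrays. Of these markers, 4 passed in KD3 and 5 in KD4 (57.1% and 71.4%, where 25.2% and 34.5% of all genes did). The neurofilament genes NEFM (log2 fold changes of -1.21 and -1.24), INA (-0.84 and -0.61) and NEFL (-0.33 and -0.41) were lower in both knock-downs, NEFH (2.25 and 2.43) was higher in both, and KRT18 (0.34) was higher in KD4. Their part in the results below was not tested. Of the markers of other cells, 4 of 5 for blood, 2 of 3 for endothelium and 1 of 2 for hepatocytes also passed the filter on dim probes. HBB, PECAM1 and ALB did not. The absence of signal from these markers is therefore not shown. Against CTL, none of the 4 tested blood markers differed at the adjusted p, and VWF was lower in both knock-downs (-0.82 and -0.69).

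Most break repair genes differed from CTL by less than 1.2-fold in each knock-down, but the share of all genes under this fold is not given here. This is therefore not shown to be particular to the members. A gene was said to have risen or fallen when the Benjamini-Hochberg adjusted p from limma, over all 32276 tested probes, was under 0.05, and each gene was read from its brightest tested probe. Against CTL, 7 of the 40 genes (17.5%) passed in KD3, with XRCC6, RIF1, LIG3, NBN and RAD51C higher and XRCC3 and RAD54L lower. Of all genes tested, 25.2% passed in KD3, 10.4% higher and 14.8% lower. In KD4, 9 of the 40 genes (22.5%) passed, with XRCC6, LIG3, NBN and MDC1 higher and POLL, ABRAXAS1, RAD51B, RAD52 and RAD54L lower, where 34.5% of all genes passed, 14.7% higher and 19.8% lower. In all, 12 genes passed in at least 1 knock-down and 28 in neither. The median log2 fold change over the 40 genes was -0.0252 in KD3 and -0.0382 in KD4, beside -0.0145 and 0.00217 over all genes. Both comparisons use the same CTL arrays, so that they are not independent of each other.

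The changes were small. No break repair gene reached the 1.8-fold threshold of the methods together with the adjusted p in KD3, KD4 or the direct comparison of KD4 with KD3, whereas 4.43%, 5.59% and 0.547% of all genes did. The largest fold was 1.53 in KD3 (NBN) and 1.52 in KD4 (LIG3). The 95% interval of the fold change excluded a change of 1.8-fold in either direction for 38 of the 40 genes in KD3 and in KD4, and for all 40 between KD4 and KD3. The corresponding shares of all genes were 87.1%, 84.3% and 93.0%. The exceptions in KD3 and KD4 were LIG4 and PARP3, whose replicates were spread most widely. The estimated change was under 1.2-fold for 32 genes in KD3 and for 28 in KD4. The whole interval lay within 1.5-fold for 36 of the 40 genes in KD3 and for 34 in KD4. The shares of all genes at these folds are not given here. The median pooled SD of the members was 0.0883 on the log2 scale, beside 0.112 over all genes tested, and single members ran from 0.0373 to 0.328. A p above the threshold does not show that a gene was unchanged, and the intervals give what remains possible.

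**Figure D1:**
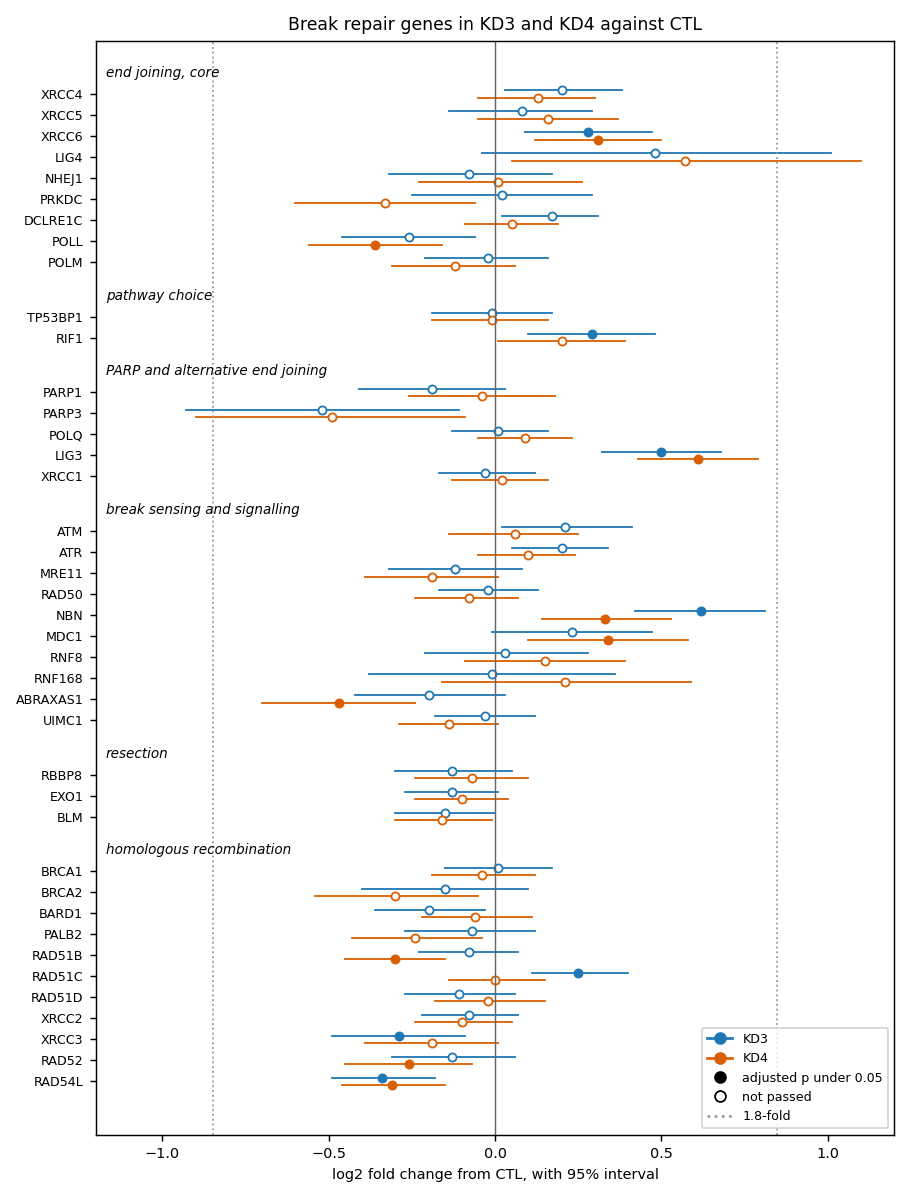
Log2 fold change from CTL of the 40 break repair genes in KD3 (blue) and KD4 (orange), with 95% intervals from limma over 9 arrays. Filled points passed at an adjusted p under 0.05, dotted lines mark 1.8-fold, and only the intervals of LIG4 and PARP3 cross those lines.

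Among the 9 core end joining genes, XRCC6, the Ku70 subunit of the heterodimer that binds broken ends, was higher in both knock-downs. Its log2 signal was 17.38, 17.34 and 17.31 on the CTL arrays (replicates 1 to 3), 17.59, 17.71 and 17.56 in KD3, and 17.63, 17.53 and 17.79 in KD4. Every knock-down array lay above every CTL array. XRCC6 differed from CTL by 0.28 on the log2 scale in KD3 (SE 0.0828, adjusted p = 0.0463 from limma) and 0.31 in KD4 (SE 0.0828, adjusted p = 0.024 from limma). In KD3 the adjusted p rose to between 0.0741 and 0.143 when any single array was left out other than KD4 replicate 2 or 3, and in KD4 to 0.0575, 0.0787, 0.0563 and 0.0684 without KD4 replicate 1, KD4 replicate 3, CTL replicate 2 and CTL replicate 3. The arrays lay on 2 slides (the glass that carries several arrays), unevenly over the groups. Slide 1 held KD3 replicates 1 and 3, KD4 replicate 1 and CTL replicate 1, and slide 2 held the rest. With the slide as a block, the adjusted p in KD3 was 0.0658 from limma. XRCC5, the Ku80 partner, gave 0.08 (95% interval -0.14 to 0.29) and 0.16 (-0.05 to 0.37), neither of which passed, and without CTL replicate 1 it passed in KD4, at 0.256.

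POLL, a polymerase that fills gaps at the joined ends, fell in KD4. The log2 signal of POLL was 11.38, 11.31 and 11.55 in CTL, 11.10, 11.10 and 11.26 in KD3, and 11.00, 11.12 and 11.05 in KD4. All 6 knock-down arrays lay below the CTL arrays. The difference from CTL was -0.36 (log2) in KD4 (SE 0.0871, adjusted p = 0.0159 from limma) and -0.26 in KD3 (adjusted p = 0.0681 from limma). Without KD4 replicate 1 the adjusted p in KD4 was 0.0567. A dimmer probe of POLL gave -0.14 and -0.18, and did not pass in either.

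The ligase and its partners did not pass in the fit of all 9 arrays. LIG4, the ligase that seals the joined ends, had log2 signals of 5.39, 5.72 and 5.23 in CTL, 6.34, 5.77 and 5.67 in KD3, and 6.31, 6.13 and 5.61 in KD4. Its replicates overlapped between the groups. The log2 fold change was 0.48 in KD3 (95% interval -0.04 to 1.01, adjusted p = 0.186 from limma) and 0.57 in KD4 (0.05 to 1.1, adjusted p = 0.0978 from limma), the widest intervals of the set, and it passed in KD4 without KD4 replicate 3, at 0.775, and with 75th percentile scaling, at 0.675. XRCC4, the scaffold that holds LIG4, gave 0.20 (0.03 to 0.38) in KD3 and 0.13 (-0.05 to 0.30) in KD4, and NHEJ1 (XLF), which bridges the ends with XRCC4, gave -0.08 and 0.01. PRKDC, the catalytic subunit of DNA-PK, gave 0.02 in KD3 and -0.33 in KD4 (95% interval -0.60 to -0.06, adjusted p = 0.0714 from limma). Its KD4 arrays, at 11.82, 11.85 and 11.72, lay just below the lowest CTL array at 11.86. Without CTL replicate 2 PRKDC passed in KD4, at a log2 fold change of -0.459. A dimmer PRKDC probe gave 0.08 in KD3 and -0.22 in KD4 (limma adjusted p = 0.313), and did not pass in either. The nuclease DCLRE1C (Artemis) gave 0.17 and 0.05 and the polymerase POLM -0.02 and -0.12, and neither passed. Their dimmer probes, at 0.08 and -0.33 for DCLRE1C and at -0.01 and 0.14 for POLM, did not pass.

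Of the pair of genes that steer breaks toward end joining, TP53BP1 (53BP1) gave -0.01 in KD3 (95% interval -0.19 to 0.17) and -0.01 in KD4 (-0.19 to 0.16). RIF1, the effector that 53BP1 recruits to limit resection, rose in KD3. The RIF1 log2 signals were 10.23, 10.28 and 10.22 in CTL, 10.69, 10.47 and 10.45 in KD3, and 10.51, 10.46 and 10.36 in KD4. All knock-down arrays lay above CTL. RIF1 differed from CTL by 0.29 on the log2 scale in KD3 (SE 0.0841, limma adjusted p = 0.0408) and 0.20 in KD4 (adjusted p = 0.106 from limma). The call in KD3 was lost without any 1 of the 9 arrays, with adjusted p-values from 0.051 to 0.104, and with the slide as a block (limma adjusted p = 0.078).

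In the group of PARP enzymes and alternative end joining, 1 of 5 genes passed in each knock-down, and it was LIG3 in both. LIG3 encodes the ligase that works with XRCC1 in single-strand break repair and alternative end joining, and that also seals mitochondrial DNA. The log2 signal of LIG3 was 7.56, 7.60 and 7.41 in CTL, 7.92, 8.11 and 8.05 in KD3, and 8.10, 8.18 and 8.10 in KD4. The lowest knock-down array stood above the highest CTL array. LIG3 was 1.42-fold higher in KD3 (log2 fold change 0.50, SE 0.079, adjusted p = 0.00302 from limma) and 1.52-fold higher in KD4 (0.61, SE 0.079, adjusted p = 0.000939 from limma), and both calls held without each array in turn. It was also higher within each slide, by 0.43 and 0.60 in KD3 and by 0.54 and 0.64 in KD4 on the log2 scale.

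The other members of this route did not pass. XRCC1, the scaffold partner of LIG3, gave -0.03 in KD3 (95% interval -0.17 to 0.12) and 0.02 in KD4 (-0.13 to 0.16), and POLQ, the polymerase of alternative end joining, gave 0.01 (-0.13 to 0.16) and 0.09 (-0.05 to 0.23). PARP1, the main sensor of strand breaks, gave -0.19 and -0.04, and 0.03 and 0.13 on a dimmer probe. PARP3 was the dimmest member and was well above background on 7 of the 9 arrays, of which 1 was a KD4 array. The log2 signal of PARP3 was 4.57, 3.88 and 4.01 in CTL, 3.70, 3.80 and 3.40 in KD3, and 3.62, 3.74 and 3.61 in KD4. All knock-down arrays lay below CTL, yet the differences of -0.52 (adjusted p = 0.0751 from limma) and -0.49 (adjusted p = 0.07 from limma) did not pass. Without CTL replicate 2 they passed, at -0.658 and -0.632, and with normexp background correction they were -0.0661 and -0.0519.

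NBN, which brings MRE11 and RAD50 to the break and activates ATM, showed the largest difference of the set in KD3. NBN log2 signals were 9.17, 9.00 and 8.90 in CTL, 9.73, 9.63 and 9.56 in KD3, and 9.36, 9.31 and 9.39 in KD4. The 3 groups did not overlap, with KD4 between CTL and KD3. Against CTL the log2 difference was 0.62 in KD3 (SE 0.085, adjusted p = 0.00164 from limma) and 0.33 in KD4 (SE 0.085, adjusted p = 0.0199 from limma). The call in KD3 held without each array in turn, whereas that in KD4 was lost without KD4 replicate 1 (adjusted p = 0.0585), KD4 replicate 3 (0.0666), CTL replicate 2 (0.0533) or CTL replicate 3 (0.0628). Its partners did not pass. MRE11 gave -0.12 and -0.19 and RAD50 gave -0.02 and -0.08.

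MDC1, the adaptor that reads phosphorylated H2AX at the break, rose in KD4. The MDC1 arrays read 13.29, 12.96 and 13.10 in CTL, 13.27, 13.43 and 13.33 in KD3, and 13.45, 13.33 and 13.59 in KD4. KD4 lay above CTL, while KD3 overlapped CTL. MDC1 differed from CTL by 0.34 on the log2 scale in KD4 (SE 0.105, adjusted p = 0.0407 from limma) and 0.23 in KD3 (adjusted p = 0.171 from limma). The KD4 call was kept only without KD4 replicate 2 or without CTL replicate 1, and the other left-out arrays gave adjusted p-values from 0.0502 to 0.133. With the slide as a block it was 0.055 from limma. The ubiquitin ligases that act after MDC1, RNF8 (0.03 and 0.15) and RNF168 (-0.01 and 0.21), did not pass. A dimmer RNF8 probe, well above background on 1 CTL array and on all knock-down arrays, gave 0.56 in KD3 (limma adjusted p = 0.056) and 0.24 in KD4. It met the filter on dim probes only through the knock-down groups, so that its higher values there are not independent of the filter.

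ABRAXAS1, the scaffold of the BRCA1-A complex that edits ubiquitin at breaks, fell in KD4. Its probe was printed as 10 spots on each array, which varied with a median SD of 0.096 on the log2 scale, and their averages were 8.23, 8.48 and 8.52 in CTL, 8.37, 8.13 and 8.14 in KD3, and 7.97, 7.92 and 7.94 in KD4. The KD4 arrays were below all others, and KD3 overlapped CTL. The difference from CTL was -0.47 (log2) in KD4 (SE 0.1, adjusted p = 0.00909 from limma) and -0.20 in KD3 (adjusted p = 0.213 from limma), and the KD4 call held without each array in turn. In KD4 it was -0.26 within slide 1, with 1 array of KD4 and 1 of CTL, and -0.57 within slide 2. UIMC1 (RAP80), which targets the same complex to ubiquitin chains, gave -0.03 and -0.14, and did not pass.

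The apical kinases did not pass on their brightest probes. ATM gave 0.21 (95% interval 0.02 to 0.41) in KD3 and 0.06 (-0.14 to 0.25) in KD4, and passed in KD3 without CTL replicate 1, at 0.303. ATR gave 0.20 (0.05 to 0.34, adjusted p = 0.0603 from limma) in KD3 and 0.10 (-0.05 to 0.24) in KD4. The brightest ATR probe passed in KD3 with 75th percentile scaling, at 0.219, and on the authors' log2 values, at 0.217. A dimmer ATR probe passed in KD3, at 0.34 with an adjusted p of 0.0473 from limma. Over the 10 sensing and signalling genes, 1 passed in KD3 (10.0%, where 25.2% of all genes did) and 3 in KD4 (30.0%, where 34.5% of all genes did), 2 of them higher and 1 lower.

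No resection gene passed in either knock-down. RBBP8 (CtIP), which starts resection with MRE11, gave -0.13 in KD3 and -0.07 in KD4. The exonuclease EXO1 gave -0.13 and -0.10, and the helicase BLM gave -0.15 and -0.16. All 3 estimates were below 0 in both knock-downs, with intervals that reached no lower than -0.30 on the log2 scale.

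**Figure D2:**
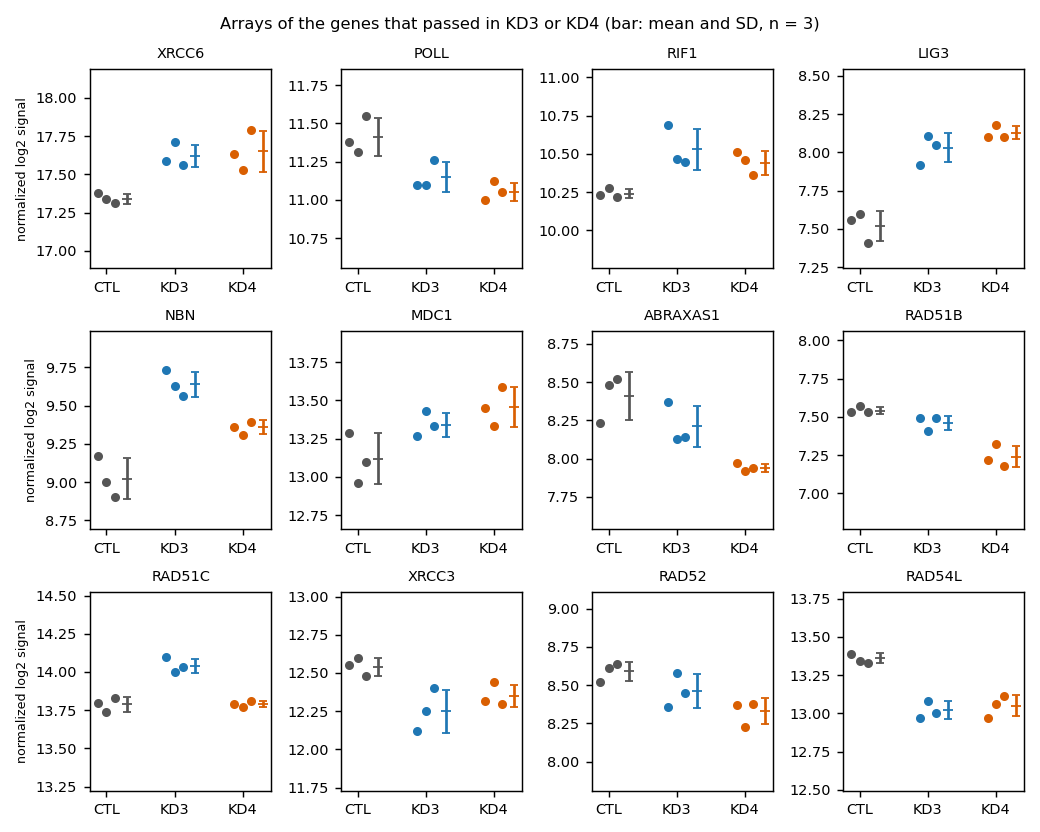
Normalized log2 signal on each of the 9 arrays for the 12 break repair genes that passed in KD3 or KD4, with the mean and SD (n = 3) beside the points and a vertical span of the same length in each panel. LIG3, NBN, XRCC6 and RAD54L had KD3 and KD4 both clear of CTL and passed in both, and RAD51C differed in KD3, where KD4 lay on CTL.

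The homologous recombination genes gave 1 higher and 2 lower calls among 11 in KD3 and 3 lower calls in KD4, which is 27.3% in each, where 25.2% and 34.5% of all genes passed. RAD54L, a motor protein that moves along DNA and helps the broken strand to invade its template, was lower in both. RAD54L signals were 13.39, 13.34 and 13.33 in CTL, 12.97, 13.08 and 13.00 in KD3, and 12.97, 13.06 and 13.11 in KD4. No knock-down array reached the level of CTL. Against CTL the log2 difference was -0.34 in KD3 (SE 0.0672, adjusted p = 0.00925 from limma) and -0.31 in KD4 (SE 0.0672, adjusted p = 0.0104 from limma), and both calls held without each array in turn. RAD54L was also lower within each slide, by -0.41 and -0.25 in KD3 and by -0.42 and -0.25 in KD4. In whole populations of cells, a smaller share of cells that express a gene and less RNA in each cell cannot be told apart.

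RAD51B, RAD51C, RAD51D, XRCC2 and XRCC3, which work together in strand exchange, did not move as a group. RAD51C rose in KD3, with log2 signals of 14.10, 14.00 and 14.03 beside 13.80, 13.74 and 13.83 in CTL and 13.79, 13.77 and 13.81 in KD4. KD3 stood above both other groups, which overlapped. The log2 fold change was 0.25 in KD3 (SE 0.0625, adjusted p = 0.0225 from limma) and 0.00 in KD4 (95% interval -0.14 to 0.15). The KD3 call was lost without KD3 replicate 1 (adjusted p = 0.0627), KD3 replicate 3 (0.0579) or CTL replicate 2 (0.0603). The difference between KD4 and KD3, -0.25, had an adjusted p of 0.0771 from limma.

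RAD51B, which acts in a complex with RAD51C, fell in KD4, and XRCC3, another partner of RAD51C, fell in KD3. RAD51B signals were 7.53, 7.57 and 7.53 in CTL, 7.49, 7.41 and 7.49 in KD3, and 7.22, 7.32 and 7.18 in KD4, so that KD4 was clear of both other groups. The RAD51B log2 fold change was -0.30 in KD4 (SE 0.0653, adjusted p = 0.00988 from limma) and -0.08 in KD3 (adjusted p = 0.446 from limma), and the KD4 call held without each array in turn. A dimmer probe of RAD51B gave 0.19 in KD3 and -0.27 in KD4, and did not pass. XRCC3 signals were 12.55, 12.60 and 12.48 in CTL, 12.12, 12.25 and 12.40 in KD3, and 12.32, 12.44 and 12.30 in KD4. All knock-down arrays were below CTL. The XRCC3 log2 fold change was -0.29 in KD3 (SE 0.0868, limma adjusted p = 0.0484) and -0.19 in KD4 (adjusted p = 0.138 from limma). It was kept in KD3 only without KD3 replicate 3, and the other left-out arrays gave adjusted p-values from 0.0629 to 0.127. With the slide as a block it was 0.0839 from limma. RAD51D (-0.11 and -0.02) and XRCC2 (-0.08 and -0.10) did not pass, nor did the dimmer probes of RAD51D (-0.22 and -0.22, 0.15 and 0.12).

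RAD52, which anneals single strands, fell in KD4. Its log2 signals were 8.52, 8.61 and 8.64 in CTL, 8.36, 8.58 and 8.45 in KD3, and 8.37, 8.23 and 8.38 in KD4. KD4 lay below CTL, and KD3 overlapped it. The log2 fold change was -0.26 in KD4 (SE 0.0823, adjusted p = 0.0436 from limma) and -0.13 in KD3 (adjusted p = 0.331 from limma). The KD4 call was lost without KD3 replicate 3, any KD4 replicate, CTL replicate 2 or CTL replicate 3, with adjusted p-values from 0.0629 to 0.14, and with the slide as a block (limma adjusted p = 0.0511).

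The genes of the BRCA1 and BRCA2 complexes did not pass. BRCA1 gave 0.01 (95% interval -0.15 to 0.17) in KD3 and -0.04 (-0.19 to 0.12) in KD4, on a probe printed as 10 spots. BARD1, its obligate partner, gave -0.20 (-0.36 to -0.03) and -0.06 (-0.22 to 0.11). BRCA2, which acts on resected single-stranded DNA, gave -0.15 in KD3 and -0.30 in KD4 (95% interval -0.54 to -0.05, adjusted p = 0.0763 from limma), and PALB2, which links BRCA1 to BRCA2, gave -0.07 in KD3 and -0.24 in KD4 (-0.43 to -0.04, adjusted p = 0.0763 from limma). The KD4 arrays of BRCA2 (7.75, 7.76 and 7.61) and PALB2 (8.49, 8.38 and 8.54) all lay below the CTL arrays of the same gene, the lowest of which were 7.87 and 8.59. Other members that did not pass were also clear of CTL, such as BLM, EXO1 and XRCC2 in both knock-downs. The share of all genes without overlap is not given here. BRCA2 passed in KD4 without KD3 replicate 1, at the same difference. Of the 11 recombination genes, the estimate was below 0 for 9 in KD3 and for 10 in KD4, with medians of -0.11 and -0.19 on the log2 scale. Over all 16082 genes it was below 0 for 8424 in KD3 and 8003 in KD4. In the lists below, it was below 0 for 25 and 22 of 32 S phase genes and 10 and 11 of 13 Fanconi anaemia genes. The counts were 15 and 18 of 23 p53 target genes, 26 and 24 of 53 other repair genes, and 6 and 5 of 20 mitosis genes.

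Between the knock-downs, no break repair gene passed, while 3.25% of all genes did, 1.36% higher and 1.89% lower in KD4. By limma 5 of the 40 had an unadjusted p under 0.05, beside 21.7% of all genes. The methods' t-test gave 5 genes without adjustment and 0 with it. The lowest adjusted p was that of RAD51C, and the differences ran from -0.35 (PRKDC) to 0.22 (RNF168) on the log2 scale, with a median of -0.0133 beside 0.012 over all genes. Of the 40 genes, 37 differed by less than 1.2-fold between KD4 and KD3, and the share of all genes under this fold is not given here. For NBN the difference was -0.28 (95% interval -0.48 to -0.09), for ABRAXAS1 -0.27 (-0.50 to -0.05) and for RAD51B -0.22 (-0.37 to -0.07). The calls that NBN, ABRAXAS1 and RAD51B gave in 1 or both knock-downs are thus not shown to differ between the hairpins.

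**Figure D3:**
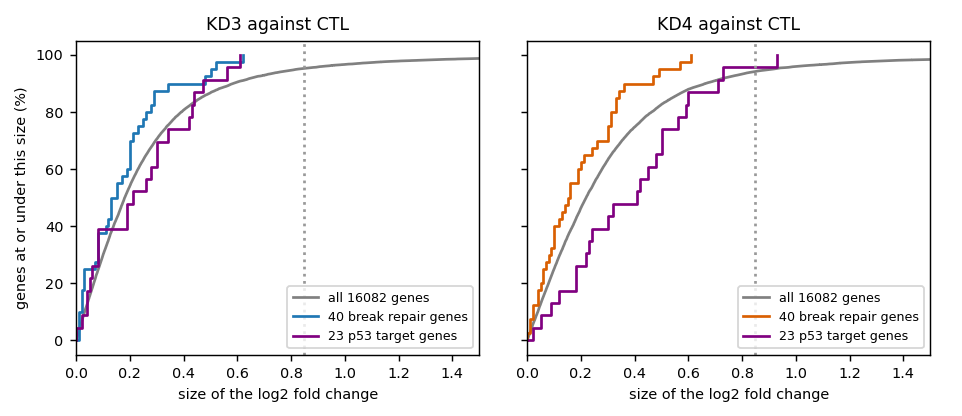
Cumulative share of genes, in percent, at or under a given size of log2 fold change, in KD3 (left) and KD4 (right), for all 16082 genes tested (gray), the 40 break repair genes (blue or orange) and 23 p53 target genes (purple). The dotted line marks 1.8-fold, which no break repair gene reached, and the axis ends at 1.5.

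The wider repair machinery was read from a second list of 54 genes, of which 53 were tested (APLF was not). In KD3, 5 rose and 5 fell (18.9% passed, where 25.2% of all genes did), and in KD4, 6 rose and 5 fell (20.8%, where 34.5% of all genes did), with medians of 0.00526 and 0.0279. The gene that moved most was RMI2, a subunit of the BLM dissolvasome that resolves recombination intermediates. RMI2 signals were 14.00, 14.01 and 14.27 in CTL, 13.26, 13.30 and 13.22 in KD3, and 13.10, 13.12 and 13.11 in KD4, without overlap between CTL and the knock-downs. It fell by 0.83 in KD3 (limma adjusted p = 0.000309) and by 0.98 in KD4 (limma adjusted p = 0.00011) on the log2 scale, and was the only gene of this list past 1.8-fold together with the adjusted p, in KD4. The checkpoint kinases CHEK1 (0.06 and 0.09) and CHEK2 (0.01 and 0.01) and the histone H2AX (-0.14 and -0.19) did not pass.

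Other genes of that list that passed, named after their values were seen, acted at several steps. RPA1, the large subunit of the single-strand binding protein RPA, rose in both knock-downs (0.41 and 0.52), as did the helicase BRIP1 (0.33 and 0.36) and BRCC3, the deubiquitinase held by ABRAXAS1 (0.31 and 0.42). RAD54B (0.39) and WRN (0.30) rose in KD3. NABP2 (SSB1), another single-strand binding protein, fell in both (-0.52 and -0.40). MAD2L2 (REV7), a shieldin subunit that acts after RIF1, fell in KD3 (-0.55) and gave -0.27 in KD4 (adjusted p = 0.062 from limma). In KD4, PSMC3IP (0.51), CYREN (0.36) and RECQL5 (0.26) rose, and RMI1 (-0.41) and RAD17 (-0.35) fell. No gene of this list passed between KD4 and KD3.

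Of the 13 genes of the Fanconi anaemia pathway, which unhooks crosslinks between strands, 2 passed in KD3 (15.4%) and 4 in KD4 (30.8%), beside 25.2% and 34.5% of all genes. FANCM, the anchor that binds stalled forks, rose (0.39 and 0.25). FANCF, a core complex subunit, fell by 0.74 in KD3 (limma adjusted p = 0.000209) and by 0.38 in KD4 (limma adjusted p = 0.00398), and FANCE (-0.28) and FAN1 (-0.27) fell in KD4.

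The target genes of p53, which ATM and CHEK2 activate after a break, were set beside the repair genes. Of 23 such genes, 4 rose and 5 fell in KD3 (39.1% passed, where 25.2% of all genes did). In KD4, 2 rose and 13 fell (65.2% passed, where 34.5% of all genes did). Their log2 fold changes had a median of -0.0457 in KD3 and of -0.41 in KD4. SESN2, a stress-induced inhibitor of mTORC1, fell most. The log2 signal of SESN2 was 10.39, 10.44 and 10.83 in CTL, 10.03, 9.98 and 9.82 in KD3, and 9.62, 9.69 and 9.58 in KD4. The groups were ordered with CTL highest and KD4 lowest, without overlap. It fell by 0.61 in KD3 (limma adjusted p = 0.00881) and by 0.93 in KD4 (limma adjusted p = 0.00092).

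CDKN1A (p21), the cell cycle inhibitor that p53 induces, fell in both knock-downs (-0.47 and -0.41), and MDM2, the ligase that degrades p53, gave -0.08 in KD3 and fell in KD4 (-0.42, adjusted p = 0.00351 from limma). TIGAR (0.42 and 0.24) and TP53I3 (0.43 and 0.22) rose in both, and TP53INP1 (0.56) and PPM1D (0.26) rose in KD3. The list thus did not move one way in KD3. Directly compared, 5 of the 23 genes were lower in KD4 than in KD3 (21.7%, where 3.25% of all genes passed) and none was higher. They were FAS (-0.67), SESN1 (-0.55), ZMAT3 (-0.50), POLH (-0.46) and BTG2 (-0.42), and in each the KD4 arrays were clear of the KD3 arrays. With an array left out, 2 to 5 of the 23 were lower, FAS and ZMAT3 each time and BTG2 in none of the 9 fits.

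Homologous recombination works in the S and G2 phases, so the proliferation genes were set beside it. Of 32 S phase genes, 1 rose and 5 fell in KD3 (18.8%, where 25.2% of all genes passed). In KD4, 3 rose and 9 fell (37.5%, where 34.5% of all genes passed). The medians were -0.12 and -0.11. The replication clamp PCNA (-0.36 and -0.42) and the transcription factor E2F1 (-0.52 and -0.39) fell in both knock-downs, and the licensing factor CDC6 rose in both (0.67 and 0.67). Of 20 mitosis genes tested, none passed in KD3, where 25.2% of all genes did, and 3 had an unadjusted p under 0.05 by limma. In KD4, CCNA2 (0.28) and CDC20 (0.49) rose (10.0%, where 34.5% of all genes passed). The S phase and mitosis genes that passed differed in the same samples as RAD54L, and their part in that difference was not tested.

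**Figure D4:**
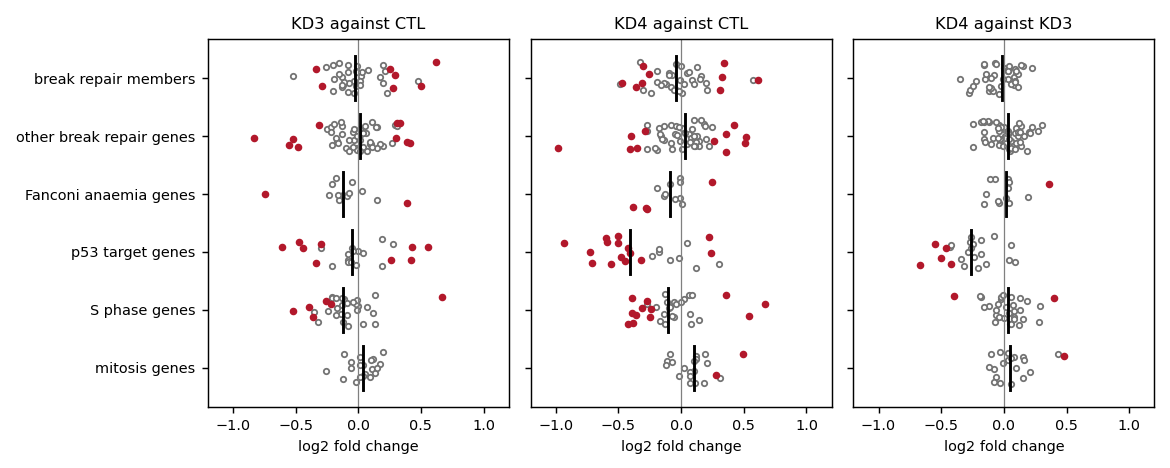
Log2 fold changes of single genes (points) and list medians (black bars) for the break repair members and 5 further lists, in KD3 against CTL, KD4 against CTL and KD4 against KD3. Red points passed at an adjusted p under 0.05 by limma, and the p53 target genes in KD4 have the median farthest from 0, at -0.41.

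Promoters of the members were read from RefSeq (GRCh38.p14), in which 37 of the 40 genes (not XRCC5, PRKDC and NBN) had an entry of 250 bases before and 50 after the annotated start. The sequences upstream of the start are shown for LIG3, XRCC6 and RAD54L, which passed in both knock-downs, and for ABRAXAS1, whose KD4 call held without each array. They were chosen after the values were seen. Capitals mark matches on either strand to the E2F, CCAAT, ETS, NRF1 or cell cycle element letters, which are spelled out after the sequences.
LIG3, chr17:34980262-34980511, plus strand: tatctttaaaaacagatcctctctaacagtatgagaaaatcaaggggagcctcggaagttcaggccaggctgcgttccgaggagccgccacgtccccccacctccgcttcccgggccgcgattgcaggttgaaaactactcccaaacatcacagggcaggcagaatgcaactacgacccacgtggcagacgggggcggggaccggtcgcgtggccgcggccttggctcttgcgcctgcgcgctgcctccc
XRCC6, chr22:41621045-41621294, plus strand: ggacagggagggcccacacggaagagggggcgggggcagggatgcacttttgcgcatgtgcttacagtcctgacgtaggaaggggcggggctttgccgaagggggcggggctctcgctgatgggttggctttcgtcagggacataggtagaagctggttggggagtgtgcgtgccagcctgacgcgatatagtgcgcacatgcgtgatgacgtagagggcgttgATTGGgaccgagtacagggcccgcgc
RAD54L, chr1:46247438-46247687, plus strand: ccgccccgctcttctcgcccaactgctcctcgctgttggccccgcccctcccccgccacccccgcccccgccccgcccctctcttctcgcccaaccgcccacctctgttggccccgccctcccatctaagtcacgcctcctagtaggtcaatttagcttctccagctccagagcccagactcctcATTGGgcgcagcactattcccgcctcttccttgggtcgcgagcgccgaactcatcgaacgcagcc
ABRAXAS1, chr4:83485101-83485350, minus strand: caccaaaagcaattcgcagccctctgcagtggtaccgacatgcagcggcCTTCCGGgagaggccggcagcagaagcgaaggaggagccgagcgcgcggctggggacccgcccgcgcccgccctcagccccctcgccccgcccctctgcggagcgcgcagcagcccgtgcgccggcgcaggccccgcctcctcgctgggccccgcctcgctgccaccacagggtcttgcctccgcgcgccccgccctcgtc
XRCC6 and RAD54L held a CCAAT box in reverse, 26 and 65 bases before the start, ABRAXAS1 held an ETS letter string in reverse, 201 bases before it, and LIG3 held no match in these bases.

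Over the whole 300 bases, the ETS string CCGGAAG was found in 17 of the 37 member promoters (45.9%), beside 16.6% of the 12674 promoters of tested genes. CCAAT was found in 40.5% of member promoters beside 36.5%. The E2F strings TTTCCCGC, TTTCGCGC, TTTGCCGC and TTTGGCGC were found in 8.11% beside 4.92%, among them XRCC6, EXO1 and XRCC2. The cell cycle element TTTGAA was found in 13.5% beside 10.4%, and the NRF1 string, GCGCA followed by its reverse complement, in none of the members beside 2.08%. No matches of different motifs overlapped in the members. Of the 12 genes that passed, only POLL and ABRAXAS1 held the ETS string among those with a promoter entry. The other ETS matches lay in genes that did not pass, but so did most members, and a link between the string and the calls was not tested.

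Some members had a neighbour transcribed in the opposite direction from a start within 1000 bases. Such a neighbour was annotated for 15 of the 37 members (40.5%), beside 21.5% of tested genes, and 11 of the 15 neighbours were tested. In KD3 4 of the 11 passed and in KD4 4 passed (36.4% in each), where 25.2% and 34.5% of all genes did. XRCC6 and DESI1, which start 252 bases apart, were both higher in both knock-downs, with 0.31 (limma adjusted p = 0.0177) and 0.25 (adjusted p = 0.0317 from limma) for DESI1. ABHD13, which starts 43 bases from LIG4, rose by 0.80 in KD3 (limma adjusted p = 0.00518) and by 0.94 in KD4 (limma adjusted p = 0.00174), where LIG4 itself did not pass in the fit of all 9 arrays. XRCC3 fell in KD3 while its neighbour ZFYVE21, 359 bases away, rose (0.33, adjusted p = 0.0419 from limma). For TP53BP1, at -0.01 in both knock-downs, the neighbour MAP1A gave 0.40 in KD3 and rose by 0.68 in KD4 (adjusted p = 0.0059 from limma). The remaining neighbours that passed were TMEM167A beside XRCC4 in KD3 (0.28) and RRP9 beside PARP3 in KD4 (0.42).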

How the data were processed

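RNA of 9 HEK293 samples, 3 per group, was measured on Agilent human expression arrays with a single dye, Cy3. The authors deposited the green processed intensity of each spot, background-subtracted by Agilent Feature Extraction 10.10 (10.10.1.1 in the file headers), and a table of log2 values, quantile normalized in GeneSpring, used here as an alternative. Outlier-flagged and control spots were left out, log2 signals were quantile normalized, and spots of a probe were averaged. Probes count as above background on an array when 0.5 of their spots are, and were tested when this held for all 3 arrays of 1 or more groups. Groups were compared with limma 3.58.1 in R 4.3.3, with a mean per group over 9 arrays and Benjamini-Hochberg adjustment over all tested probes. Quantile normalization equalises the arrays, so that a change common to most genes is not seen. Genes (25422 of 42405 probes) were named through RefSeq accessions, on GRCh38.p14, whereas the array was designed on an older build, and the brightest tested probe was used.

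Text names all members, list genes past 1.8-fold or fixed by choice, and others where stated or in a count of calls. Members and lists were chosen with earlier results of these data known. The alternatives tried were normexp (offset 50), 75th percentile scaling, other probe filters, all probes of a gene, the methods' unequal variance test, fits of 2 groups, replicate or slide blocks, fits within slides, and leaving out each array. The fit was tested on simulated data. Off-target matches of the hairpins were not analysed, and some genes of the lists are counted but not reported by name here.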

Additional observations from a re-analysis of the deposited data

Results flagged for a closer look

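These genes differed between KD4 and KD3 in the direct limma comparison, with no overlap between the KD4 and KD3 arrays. The hairpin and the infected population cannot be told apart in this comparison. SMCHD1 itself was lower in KD4, at -0.56 on the log2 scale (adjusted p = 0.0195 from limma). Among the p53 target genes, FAS (-0.67, adjusted p = 0.00618 from limma), ZMAT3 (-0.50, adjusted p = 0.00962 from limma), SESN1 (-0.55, adjusted p = 0.0114 from limma), POLH (-0.46, adjusted p = 0.0392 from limma) and BTG2 (-0.42, adjusted p = 0.0496 from limma) were lower in KD4. Of these, FAS, ZMAT3, SESN1 and BTG2 fell in KD4 against CTL and did not pass in KD3, and POLH passed in neither. FANCF was higher in KD4 than in KD3 (0.36, adjusted p = 0.0338 from limma), having fallen in both. Among the S phase genes, TK1 was higher (0.40, adjusted p = 0.0256 from limma) and POLE2 lower (-0.40, adjusted p = 0.0311 from limma), and CDC20, a mitosis gene, was higher (0.48, adjusted p = 0.039 from limma). None of the 40 break repair genes was among them. With each array left out in turn, FAS and ZMAT3 passed in all 9 fits, SESN1 in 7, SMCHD1 in 4, TK1 and POLE2 in 3, FANCF, POLH and CDC20 in 2 and BTG2 in 0.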

How the results depend on the processing

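No called member changed direction under any alternative. Of the calls against CTL, 3 of 7 in KD3 (LIG3, NBN and RAD54L) and 4 of 9 in KD4 (LIG3, RAD54L, ABRAXAS1 and RAD51B) held without each array in turn. The count in KD3, 7, was 4 with no filter on dim probes, 4 with the slide as a block, 3 with KD3 and CTL fitted alone, 0 with the methods' t-test and adjustment, 1 within slide 1, 0 within slide 2, 0 with the 1.8-fold threshold added, and 3 to 5 with an array left out. The count in KD4, 9, was 16 with the methods' t-test without adjustment, 0 with it, 0 within slide 1, 2 within slide 2, 0 with the fold threshold, and 4 (without KD4 replicate 1) to 10 with an array left out, with 5 without CTL replicate 3. Between KD4 and KD3 the count of 0 became 1 with normexp (RAD51C) and 5 with the methods' t-test without adjustment. The counts under the alternatives, here and below, are given without the share of all genes called under the same setting. They therefore do not show a change particular to the members. With normexp, POLL (-0.276) and BARD1 (-0.225) also passed in KD3, and PRKDC (-0.324) and RIF1 (0.244) in KD4. With 75th percentile scaling, XRCC6 (limma adjusted p = 0.0575) and XRCC3 (0.0892) did not pass in KD3, nor RAD52 (0.062) in KD4. Fits within a slide rest on 1 or 2 arrays per group. The median log2 fold change over the members in KD3 was -0.000199 with 75th percentile scaling, -0.00727 on the authors' log2 values, -0.0456 within slide 1 and -0.0556 to -0.0157 with an array left out. It was, in KD4, -0.0624 within slide 1, -0.0226 within slide 2 and -0.0571 to -0.0295 with an array left out, and between KD4 and KD3 -0.0344 within slide 2 and -0.0406 to -0.00169. SMCHD1 did not pass in KD3 within slide 1 (-0.842), nor between KD4 and KD3 with the methods' t-test and adjustment (-0.56), within slide 1 (-0.73), within slide 2 (-0.376) or without single arrays of KD3 or KD4 other than KD3 replicate 2 (-0.627 to -0.508 over all left-out arrays). The causes were not tested.

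Samples with the same replicate number deviated with correlations of -0.0775 to 0.143, beside -0.139 to 0.139 for other pairs. Between KD4 and CTL the same-numbered pairs gave 0.1284, 0.1433 and 0.07444, and the other pairs -0.1117 to -0.02007. Each of these same-numbered pairs also shared a slide, which most of the other pairs did not. Over all groups, pairs with different numbers on the same slide gave -0.07006 to 0.1393. Same-numbered pairs gave -0.07751, -0.008717 and -0.02232 between KD3 and CTL, and 0.1427, -0.05038 and 0.01448 between KD3 and KD4. Whether the numbers pair the samples was not tested. With the replicate number as a block, 3 members passed in KD3, 7 in KD4 and 0 between KD4 and KD3. XRCC6 (limma adjusted p = 0.095), RIF1 (0.0551), RAD51C (0.0503) and XRCC3 (0.0818) did not pass in KD3, XRCC6 (0.055), MDC1 (0.0664) and RAD52 (0.076) did not pass in KD4, where LIG4 (0.0451) did, and SMCHD1 did not pass between KD4 and KD3 (-0.56, adjusted p = 0.0692 from limma).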
